A study of Mus musculus with 8 samples.

Results

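Endothelial cells line the heart's blood and lymph vessels and its chambers. The 33 genes described here mark that identity and were taken by name from a list of 24411 gene symbols, as 22 genes shared by most endothelial cells (pan-endothelial), 5 linked to capillaries, 4 to arteries and 2 to lymphatic vessels. The list was chosen with earlier results of these hearts known. Expression was compared in whole hearts of 4 mice with a cardiac-specific knockout of the transcription factor Yin-Yang 1 (YY1 KO) and 4 MerCreMer control mice. MerCreMer is a Cre recombinase that the hormone analogue tamoxifen switches on, and its name is all that the labels give for the control genotype. All mice were C57BL/6, and every heart was taken 1 week after transverse aortic constriction (TAC), in which a band on the aortic arch puts a pressure load on the left ventricle. The promoter that drives the Cre, the cell type it targets within the heart, the floxed or wild-type state of Yy1 in controls, the age of the mice and the induction scheme are not stated in these sources, and no unoperated heart was analysed. All differences are therefore between genotypes after TAC.

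Endothelial identity rests on a small set of transcription factors, among them the ETS proteins ERG and FLI1 and the SOXF proteins SOX7, SOX17 and SOX18, which keep junction, receptor and anticoagulant genes active. In the heart, capillary endothelium takes up fatty acids for cardiomyocytes, arterial endothelium is patterned by Notch signalling, and lymphatic endothelium is specified by PROX1. Whole-heart RNA pools endothelial cells with every other cell type, and cardiomyocytes give most of the RNA.

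The libraries held 14582605 to 16000455 reads assigned to genes. Levels are given as CPM, read counts relative to the library total, with libraries scaled by the trimmed mean of M values (TMM). The labels give all mice as male, but 4 libraries (YY1 KO 1 and 4, control 1 and 4) held 2156 to 3512 Xist reads and at most 2 reads of 4 Y-linked genes, whereas the other 4 held 2519 to 3018 Y-linked reads and at most 6 Xist reads. Both kinds occurred equally often in both groups, and calls lost without the 4 Xist-positive libraries are named with each gene. Yy1 itself averaged 21.0 ± 2.55 CPM in YY1 KO hearts and 36.1 ± 1.58 CPM in control hearts (SD, n = 4 each; log2 fold change −0.78 ± 0.10 SE, adjusted p = 0.000769).

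All 33 genes passed the filter on low counts, with 84 reads or more in every library. With a threshold of 0.05 on the adjusted p, YY1 KO hearts had 14 of them (42.4%) lower and 2 (6.06%) higher, 48.5% in all. Among all 13506 tested genes, 17.3% were lower and 21.6% higher, 38.9% in all. The median log2 fold change was −0.47 over the 33 genes and 0.013 over all tested genes. A total of 27 of the 33 values were below 0, and the 33 ranged from −1.43 to 1.01. The CPM values of the groups did not overlap for 9 lower genes (27.3%) and 2 higher genes (6.06%), and among all tested genes for 16.5% and 21.8% in those directions. In whole-heart RNA, fewer endothelial cells and less RNA per endothelial cell cannot be told apart.

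In the 4 Y-positive hearts alone, 14 members were again lower and 2 higher, 13 and 2 of them shared with the fit over all 8 hearts. Among all genes, 11.8% were lower and 12.7% higher in the Y-positive hearts. In the 4 Xist-positive hearts alone edgeR called no gene of 13671, members or not. There 5 members were lower and 1 higher at an unadjusted p under 0.05, 29 of 33 values were below 0, and the median was −0.46, against −0.50 in the Y-positive hearts. A test of the difference between both kinds of heart in edgeR, an interaction term, called no gene after adjustment, with 1 member (Rasgrp3, adjusted p = 0.812) at an unadjusted p under 0.05. Leaving out each library in turn kept 10 of the 16 calls in all 8 fits.

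**Figure D1:**
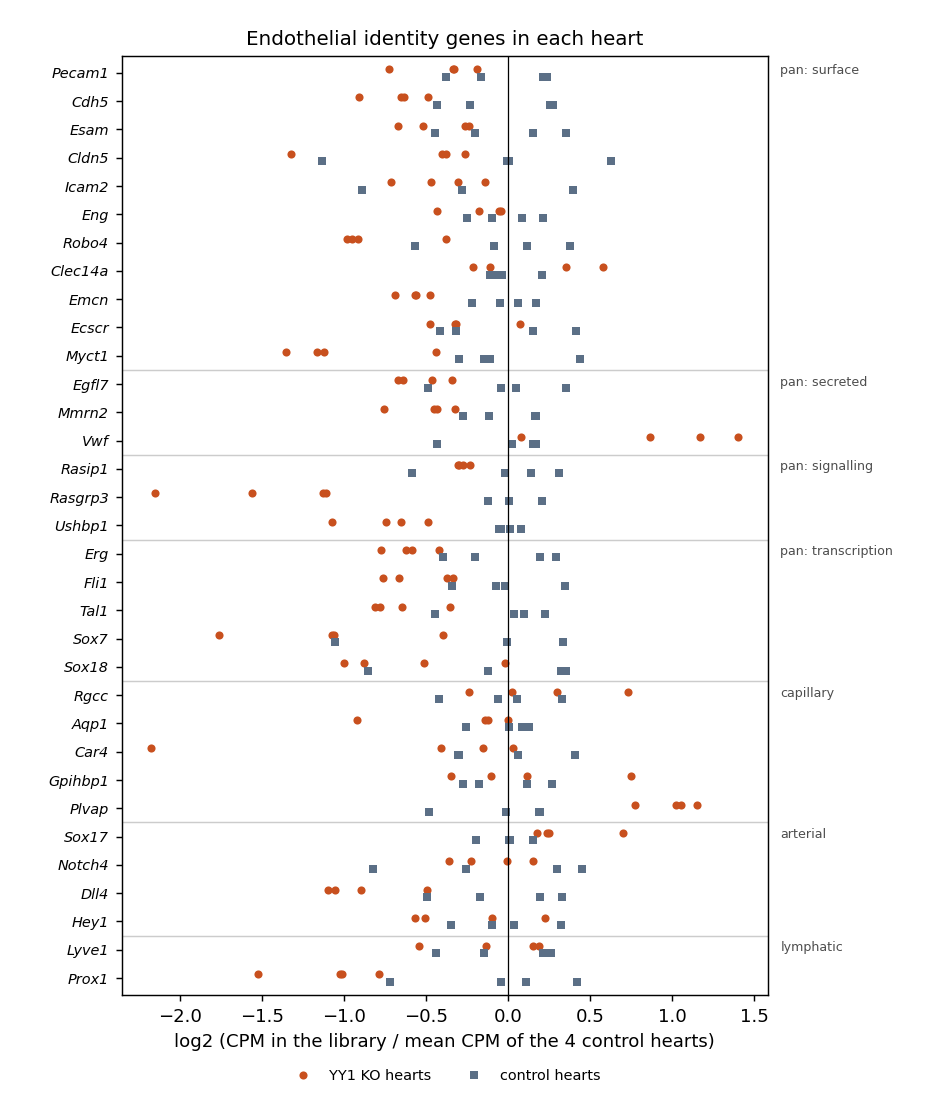
Each row is 1 of the 33 endothelial genes and each point 1 heart (YY1 KO circles, control squares, n = 4 each), as log2 of its CPM over the mean CPM of the 4 control hearts. Points of YY1 KO hearts lie left of all control points for 9 genes, such as Rasgrp3, and right of all of them for Plvap and Sox17.

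Genes whose products sit at the endothelial surface made up the largest class, and 4 of these 11 (36.4%) fell, against 17.3% of all tested genes. Cdh5, which encodes VE-cadherin, the adhesion molecule of endothelial junctions (mm10 chromosome 8, 104101625 to 104144511), stood at 189.9, 227, 229 and 254 CPM in YY1 KO hearts 1 to 4 and at 264, 303, 431 and 426 CPM in control hearts 1 to 4. The groups did not overlap, with control 1 only just above the highest YY1 KO heart, and controls 3 and 4 were far above the rest. The log2 fold change was −0.66 ± 0.18 (adjusted p = 0.0163), so the YY1 KO mean was 63.2% of the control mean.

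Emcn, the sialomucin endomucin of capillary and venous endothelium, had 37.7, 34.6, 37.8 and 40.2 CPM in YY1 KO hearts, against 54.0, 48.1, 62.9 and 58.3 CPM in control hearts. Both groups were tight and separate, and Emcn fell by 0.57 ± 0.10 on the log2 scale (adjusted p = 0.00228). Myct1, a small membrane protein of endothelial cells, had 10.1, 11.5, 11.8 and 19.0 CPM in YY1 KO hearts, against 23.9, 20.9, 34.9 and 23.3 CPM in control hearts. Only YY1 KO 4 came near the controls, and the YY1 KO mean was 50.8% of the control mean (−0.98 ± 0.23, adjusted p = 0.00913). Robo4, a roundabout receptor that stabilises vessels, had 43.9, 45.0, 46.2 and 66.9 CPM in YY1 KO hearts and 58.6, 81.9, 94.0 and 113 CPM in control hearts. YY1 KO 4 lay above control 1, so the groups overlapped, and the difference was −0.78 ± 0.21 (adjusted p = 0.0167). Without YY1 KO 3 the adjusted p of Robo4 was 0.0536.

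The other 7 surface genes did not pass. Pecam1, the platelet and endothelial adhesion molecule also called CD31, had 186, 269, 243 and 244 CPM in YY1 KO hearts and 236, 274, 363 and 355 CPM in control hearts. Its groups overlapped through control 1, and control 2 lay only just above the highest YY1 KO heart (−0.38 ± 0.17, adjusted p = 0.0996). The junction genes Esam (−0.41 ± 0.18), Cldn5 (−0.54 ± 0.34) and Icam2 (−0.39 ± 0.27) had similar values. Without control 1, which had the lowest level of each of these 4 genes among the controls, Pecam1 (−0.50, adjusted p = 0.0326), Esam (−0.54, 0.025), Cldn5 (−0.79, 0.041) and Icam2 (−0.61, 0.0353) passed. Pecam1 also passed in DESeq2 (adjusted p = 0.0484). Eng, the TGF-beta co-receptor endoglin, was at 221 ± 26.6 CPM in YY1 KO hearts and 248 ± 34.9 CPM in control hearts (−0.17 ± 0.13, adjusted p = 0.329). Ecscr, which marks endothelial filopodia and junctions, stood at −0.24 ± 0.20 (adjusted p = 0.352). Clec14a, a C-type lectin that binds the matrix protein multimerin-2, was the single surface gene with a positive value (0.19 ± 0.18, adjusted p = 0.427).

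**Figure D2:**
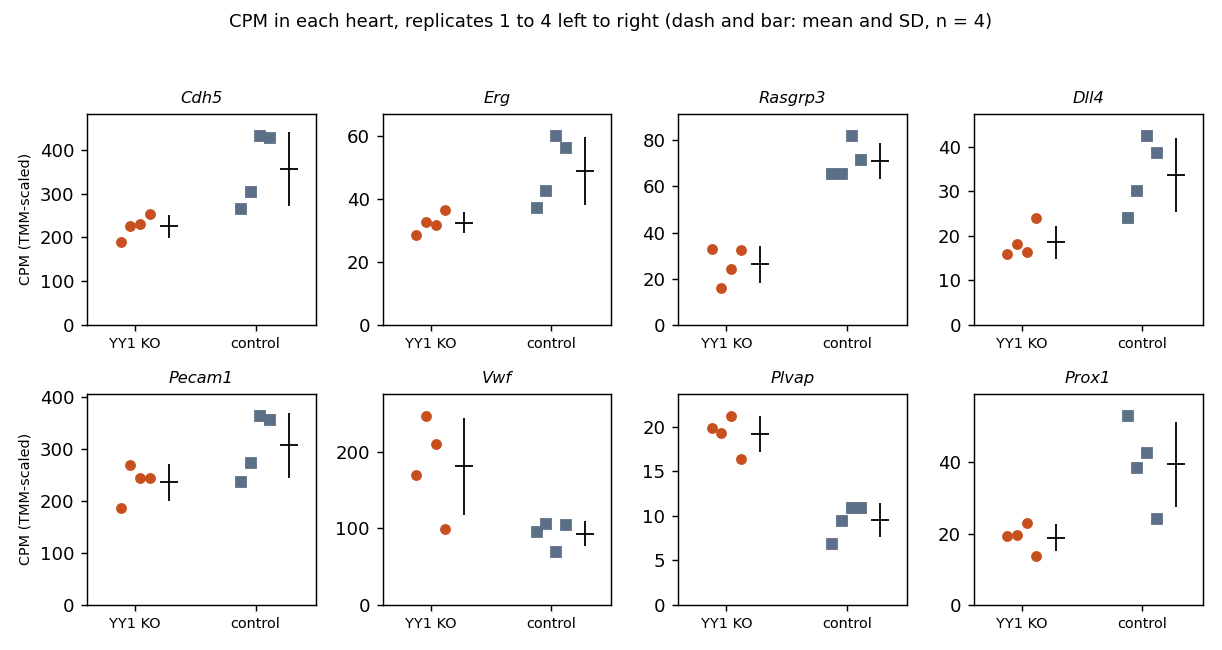
CPM of 8 endothelial genes in each heart (YY1 KO circles left, control squares right, replicates 1 to 4 from left to right), with the mean and SD of each group beside them (n = 4). Cdh5, Erg, Rasgrp3, Dll4 and Prox1 are lower in YY1 KO hearts, Plvap and, apart from YY1 KO 4, Vwf are higher, and Pecam1 overlaps.

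The 3 genes of secreted proteins split. Egfl7, an angiogenic matrix protein that hosts the endothelial microRNA miR-126, averaged 85.9 ± 9.29 CPM in YY1 KO hearts and 123 ± 28.6 CPM in control hearts and fell (−0.52 ± 0.17, adjusted p = 0.0331). That call was lost in 6 of the 8 fits without 1 library, with adjusted p of at most 0.0919. It was kept without YY1 KO 4 or control 1, and lost with library size as the only scaling (−0.47, adjusted p = 0.0651). Mmrn2, multimerin-2 of the endothelial matrix, had 44.3, 54.7, 55.4 and 59.7 CPM in YY1 KO hearts, against 61.8, 69.0, 84.3 and 83.9 CPM in control hearts, without overlap (−0.48 ± 0.13, adjusted p = 0.0175).

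Vwf moved the other way. The gene encodes von Willebrand factor, the adhesive glycoprotein that endothelial cells store and release for platelet capture, and lies on chromosome 6 (125546774 to 125686679). It had 169, 246, 209.6 and 98.4 CPM in YY1 KO hearts 1 to 4 and 94.4, 105, 69.0 and 104 CPM in control hearts 1 to 4. YY1 KO hearts 1 to 3 were all above the controls, and YY1 KO 4 lay among them. Vwf rose 1.95-fold (log2 fold change 0.96 ± 0.26, adjusted p = 0.0177), without YY1 KO 3 the adjusted p was 0.0542, and with the replicate number as a block it was 0.0532. The log2 fold change was 1.37 (adjusted p = 0.0132) in the Y-positive hearts and 0.43 (adjusted p = 0.392) in the Xist-positive hearts, and the test of that difference gave an unadjusted p of 0.0525 (adjusted p = 0.812). Platelets and their precursors also carry Vwf. The 5 platelet markers summed to 10.7 to 17.2 CPM in YY1 KO hearts and 11.6 to 15.6 CPM in control hearts. Of the 4 tested, the integrin gene Itga2b came closest to the threshold, with 3.03, 4.89, 4.87 and 2.37 CPM in YY1 KO hearts and 2.25, 2.14, 2.15 and 2.85 CPM in control hearts (0.69 ± 0.27, adjusted p = 0.0726). As with Vwf, YY1 KO hearts 1 to 3 were above the controls and YY1 KO 4 lay among them, and Itga2b passed without YY1 KO 4 (adjusted p = 0.0246). The part of platelets in the Vwf result was not tested.

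Among the intracellular signalling genes, Rasgrp3 had the largest decrease of the 33 genes. It encodes a guanine nucleotide exchange factor that activates RAS and RAP1 downstream of VEGF receptors and diacylglycerol (chromosome 17, 75435896 to 75529054). Its levels were 32.9, 15.96, 24.0 and 32.4 CPM in YY1 KO hearts, against 65.3, 65.2, 81.8 and 71.4 CPM in control hearts. Every YY1 KO heart was far below every control heart, and the YY1 KO mean was 37.1% of the control mean (−1.43 ± 0.21, adjusted p = 0.00123). The log2 fold change was −1.90 in the Y-positive and −1.07 in the Xist-positive hearts. Ushbp1, a partner of the scaffold protein harmonin, had 45.3, 57.1, 60.7 and 68.1 CPM in YY1 KO hearts, against 91.8, 92.7, 101 and 96.2 CPM in control hearts, the tightest control values of the class. It fell by 0.72 ± 0.12 on the log2 scale (adjusted p = 0.00194).

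Rasip1, a RAS-interacting protein needed for vessel lumens, averaged 64.2 ± 1.43 CPM in YY1 KO hearts and 77.8 ± 19.0 CPM in control hearts and did not pass (−0.28 ± 0.16, adjusted p = 0.207). Of its stranded reads, 17.6% in YY1 KO hearts and 5.04% in control hearts lay on the opposite strand, where A030001D20Rik and Gm45437 are annotated. In counts of the annotated strand alone Rasip1 was lower (−0.48, adjusted p = 0.0486), and without control 1 it was −0.44 (adjusted p = 0.00794).

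Of the 5 pan-endothelial transcription factor genes, 4 (80%) fell, against 17.3% of all tested genes. Erg, whose ETS-family product maintains endothelial gene expression (chromosome 16, 95359169 to 95586593), had 28.6, 32.7, 31.8 and 36.5 CPM in YY1 KO hearts, against 37.1, 42.6, 59.8 and 56.1 CPM in control hearts. The groups touched without overlapping (−0.59 ± 0.16, adjusted p = 0.0162). Its ETS relative Fli1, also active in blood cells, fell by 0.52 ± 0.16 (25.5 ± 3.70 CPM in YY1 KO hearts, 36.5 ± 7.36 CPM in control hearts, adjusted p = 0.0287). The haemangioblast factor gene Tal1 fell by 0.64 ± 0.18 (6.16 ± 0.927 CPM in YY1 KO hearts, 9.57 ± 1.78 CPM in control hearts, adjusted p = 0.02). Sox7 stood at 8.37, 13.6, 13.4 and 21.5 CPM in YY1 KO hearts and 13.7, 28.2, 35.8 and 35.7 CPM in control hearts, and control 1 lay inside the YY1 KO range (−0.996 ± 0.34, adjusted p = 0.0449).

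These calls differed in how far they rested on single libraries. The Erg call held in all 8 fits without 1 library. That of Fli1 was lost without YY1 KO 1 or 4 or control 3 or 4 (adjusted p of at most 0.0739) and in the Y-positive hearts (−0.52, adjusted p = 0.0703), and that of Tal1 without YY1 KO 1 or 3 or control 3 (at most 0.0613). The Sox7 call was lost in 6 of 8 such fits, kept without YY1 KO 4 or control 1, and lost with limma-voom (adjusted p = 0.0592), with a term for the sex-chromosome kind (0.0677), without a filter (0.0692) and with library size as the only scaling (0.0613). Sox18, the third SOXF gene, had 23.4, 30.2, 21.4 and 42.3 CPM in YY1 KO hearts and 23.7, 39.4, 53.8 and 54.8 CPM in control hearts and did not pass (−0.55 ± 0.29, adjusted p = 0.162). It passed without control 1 (−0.76, adjusted p = 0.0325) and in the Y-positive hearts (−0.87, adjusted p = 0.0386).

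ETS proteins recognise DNA around a GGAA core, and promoters of some genes that fell are shown as examples. RefSeq promoters of build GRCm38.p6 (250 bases before to 50 after an annotated start) were matched for 18 of the 33 genes, 25 promoters in all. Those of Robo4 (chr9:37401722-37402021, plus strand), Dll4 (chr2:119325534-119325833, plus strand) and the more upstream of both Rasgrp3 promoters (chr17:75435655-75435954, plus strand) read as follows, with GGAAG or its complement CTTCC in capitals.
Robo4: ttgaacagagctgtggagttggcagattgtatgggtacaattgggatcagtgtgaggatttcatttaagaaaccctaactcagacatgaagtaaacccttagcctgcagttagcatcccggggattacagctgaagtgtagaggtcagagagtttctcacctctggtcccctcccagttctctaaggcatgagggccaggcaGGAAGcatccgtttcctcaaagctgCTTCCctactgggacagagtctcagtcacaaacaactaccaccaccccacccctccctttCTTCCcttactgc
Dll4: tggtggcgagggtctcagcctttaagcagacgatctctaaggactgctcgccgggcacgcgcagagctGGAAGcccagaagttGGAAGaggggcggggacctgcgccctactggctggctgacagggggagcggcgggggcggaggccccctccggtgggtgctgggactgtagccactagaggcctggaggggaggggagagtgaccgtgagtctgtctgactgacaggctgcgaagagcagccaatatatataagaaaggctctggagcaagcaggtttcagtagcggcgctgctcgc
Rasgrp3: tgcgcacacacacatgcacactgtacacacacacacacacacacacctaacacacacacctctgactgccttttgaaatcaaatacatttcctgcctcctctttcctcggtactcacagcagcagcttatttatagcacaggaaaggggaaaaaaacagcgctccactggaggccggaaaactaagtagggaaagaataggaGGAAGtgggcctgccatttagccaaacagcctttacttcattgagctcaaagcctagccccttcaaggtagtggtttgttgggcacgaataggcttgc

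The Robo4 promoter held GGAAG 3 times over both strands, that of Dll4 2 times and the Rasgrp3 promoter shown 1 time. GGAAG on either strand was found in 21 of the 25 member promoters (84%) and in 71.4% of all 32851 RefSeq promoters of that length. Genes that were not called held it too, such as Notch4 (4 times) and Eng, Aqp1 and Car4 (2 times each), while Cldn5 held none. Of the genes that fell, 1 promoter each of Egfl7, Erg and Tal1 held none. A difference in GGAAG between genes that fell and the rest was not tested. The core CCATNTT bound by YY1, where N is any base, was found in 2 member promoters (8%), those of Rasip1 and Ushbp1, and in 16.1% of all. The hexamer GATAAG, bound by GATA zinc-finger factors of blood and endothelial cells, was found in 3 (12%) and in 7.44% of all. These are matches of letters in a short window and not evidence of binding.

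Of the 5 capillary genes, 1 (20%) was higher, against 21.6% of all tested genes, and 4 were not called. The median log2 fold change of the 5 was 0.16. Among 9 capillary genes outside the 33, 6 fell and the median was −0.86. That median was the value of Lpl, named after its value was seen and not called (−0.86 ± 0.30, adjusted p = 0.0502). Lpl averaged 5033 ± 1059 CPM in control hearts, and the part of cardiomyocytes in its value was not tested. No difference between gene classes was tested. Plvap encodes the diaphragm protein of fenestrae, caveolae and transendothelial channels and is typically low in continuous heart capillaries (chromosome 8, 71497765 to 71511752). It had 19.8, 19.4, 21.2 and 16.3 CPM in YY1 KO hearts, against 6.83, 9.47, 10.9 and 10.9 CPM in control hearts. All 4 YY1 KO hearts were above all 4 controls, and Plvap rose 2.01-fold (1.01 ± 0.16, adjusted p = 0.00172). Its log2 fold change was 0.97 in the Y-positive and 1.03 in the Xist-positive hearts, and the call held in all 8 fits without 1 library.

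Gpihbp1, which carries lipoprotein lipase across capillary endothelium, had 81.2, 173, 112 and 96.0 CPM in YY1 KO hearts and 85.1, 91.1, 112 and 124 CPM in control hearts (0.17 ± 0.23, adjusted p = 0.592). Its positive value rested on YY1 KO 2, without which it was −0.097. Car4, the membrane carbonic anhydrase of capillaries, had 5.28, 21.5, 18.0 and 24.4 CPM in YY1 KO hearts and 24.9, 19.4, 19.5 and 31.7 CPM in control hearts (−0.47 ± 0.39, adjusted p = 0.366). YY1 KO 1 stood apart at the bottom, YY1 KO 3 lay just under the lowest control, and YY1 KO 2 and 4 lay inside the control range. Aqp1, the water channel, showed the same heart lowest, with 221, 386, 419 and 382 CPM in YY1 KO hearts and 422, 446, 351 and 459 CPM in control hearts (−0.25 ± 0.19, adjusted p = 0.321). Rgcc, a cell-cycle regulator enriched in capillary cells, averaged 38.6 ± 11.4 CPM in YY1 KO hearts and 32.4 ± 6.83 CPM in control hearts (0.25 ± 0.22, adjusted p = 0.393).

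Of the 4 arterial genes 1 (25%) fell, against 17.3% of all tested genes, and this was Dll4. It encodes the Notch ligand that VEGF induces in arterial and tip cells (chromosome 2, 119325784 to 119335962), and it had 15.8, 18.1, 16.2 and 23.9 CPM in YY1 KO hearts, against 24.0, 30.0, 42.4 and 38.6 CPM in control hearts. YY1 KO 4 and control 1 were nearly equal, and the other hearts were well apart (−0.87 ± 0.20, adjusted p = 0.00881). The receptor gene Notch4 (86.5 ± 13.7 CPM in YY1 KO hearts, 92.5 ± 33.8 CPM in control hearts, −0.096 ± 0.25, adjusted p = 0.783) and the Notch target Hey1 (12.5 ± 3.31 CPM in YY1 KO hearts, 14.3 ± 2.79 CPM in control hearts, −0.20 ± 0.21, adjusted p = 0.468) did not pass. The Notch4 value was above 0 without control 3 (0.015) or control 4 (0.081). Sox17, the SOXF gene of arterial endothelium, had 22.0, 21.8, 20.9 and 30.0 CPM in YY1 KO hearts, against 16.1, 18.7, 18.5 and 20.6 CPM in control hearts. The groups did not overlap by a narrow margin, yet the difference missed the threshold (0.36 ± 0.14, adjusted p = 0.0641).

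Both lymphatic genes are also expressed outside lymphatic vessels, Prox1 in cardiomyocytes and Lyve1 in resident macrophages. Prox1, the master transcription factor gene of lymphatic fate (chromosome 1, 190118035 to 190170714), had 19.4, 19.6, 22.9 and 13.7 CPM in YY1 KO hearts, against 53.0, 38.3, 42.6 and 24.0 CPM in control hearts. Control 4 was only just above the highest YY1 KO heart, and the YY1 KO mean was 47.8% of the control mean (−1.06 ± 0.24, adjusted p = 0.00758). Prox1os and Gm28172 are annotated on the opposite strand of Prox1, and the call held in counts of the annotated strand alone. Lyve1, a hyaluronan receptor, had 21.3, 26.7, 26.1 and 16.1 CPM in YY1 KO hearts and 21.1, 27.1, 17.3 and 28.1 CPM in control hearts, ranges that overlapped almost wholly (−0.056 ± 0.20, adjusted p = 0.843). The sign of its value turned with library size as the only scaling (0.001), in the Y-positive hearts (0.23), and without YY1 KO 4, control 2 or control 4 (0.012 to 0.076). Of 6 other lymphatic genes, 5 were tested and none was called by edgeR or at an unadjusted p under 0.05, with a median log2 fold change of 0.37. Among these the VEGF-C receptor gene Flt4 was at 35.8 ± 2.41 CPM in YY1 KO hearts and 43.0 ± 10.3 CPM in control hearts and passed only without control 1 (−0.43, adjusted p = 0.0122). The chemokine gene Ccl21a was listed at 0 in all libraries, and whether this reflects absent RNA or the counting was not tested.

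The sum of the 9 cardiomyocyte markers was 53974 to 78005 CPM in YY1 KO hearts and 87859 to 116650 CPM in control hearts. Of the 9, 3 (33.3%) were lower, against 17.3% of all tested genes, among them Mb (−1.84 ± 0.35) and Myl2 (−1.27 ± 0.21). The others were not called. Of these, named after their values were seen, Tnnt2 was above 0 (0.31 ± 0.24). Pln (−0.056 ± 0.26) and Ttn (−0.145 ± 0.12) were near 0. The 6 markers of Lyve1-positive macrophages summed to 117 to 155 CPM in YY1 KO hearts and 141 to 179 CPM in control hearts. Of the 6, 3 (50%) were lower, against 17.3% of all tested genes, among them Folr2 (−0.72 ± 0.16) and Cbr2 (−0.58 ± 0.16). Of the stranded Folr2 reads, 28.1% in YY1 KO hearts and 7.03% in control hearts lay on the opposite strand. Their part in the Prox1 and Lyve1 values was not tested.

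The hearts of 1 group did not vary gene by gene alone. Among YY1 KO hearts, number 1 was the lowest for 18 of the 33 genes. Among control hearts, number 1 was the lowest for 23 and number 3 the highest for 18. The 22 pan-endothelial genes, averaged as log2 CPM after subtracting each gene's mean over all 8 hearts, stood at −0.38, −0.19, −0.23 and −0.16 in YY1 KO hearts 1 to 4 and −0.15, 0.16, 0.51 and 0.43 in control hearts 1 to 4. Control 1 thus lay at the level of the YY1 KO hearts. The 5 capillary genes had −0.55, 0.33, 0.15 and 0.24 in YY1 KO hearts and −0.15, −0.12, −0.16 and 0.24 in control hearts. These groups overlapped, with YY1 KO 1 below and YY1 KO 2 above all controls. Per kilobase of exon, the control level ran from 2.19 CPM for Tal1 to 159.8 CPM for Aqp1, with Cdh5 at 84.7, Eng at 61.4 and Pecam1 at 49.3 CPM per kilobase. In YY1 KO hearts these genes had 1.41, 134, 53.5, 54.6 and 37.8 CPM per kilobase, so that Eng and no longer Cdh5 was the highest of the last 3, a difference of levels that was not tested.

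**Figure D3:**
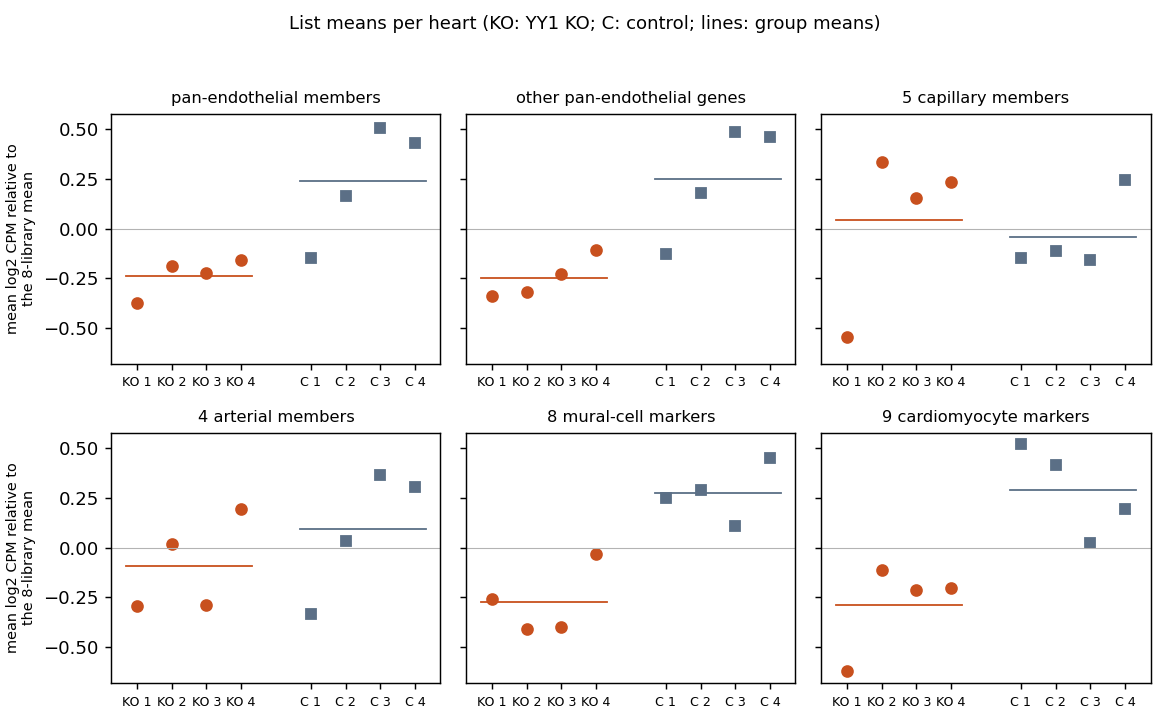
Mean log2 CPM of 6 gene lists in each heart after subtracting each gene's 8-heart mean (YY1 KO circles left, control squares right; lines, group means). The 22 pan-endothelial members and 21 other pan-endothelial genes share a pattern, highest in controls 3 and 4, whereas the 5 capillary members overlap. The list means of mural-cell and cardiomyocyte markers are lower in YY1 KO hearts.

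To ask which of the 33 genes differed beyond other endothelial genes, all genes were refitted with libraries scaled to 21 pan-endothelial genes outside the list. This scaling raised the median log2 fold change of all tested genes by 0.47, and 42.3% of all genes were then higher and 3.65% lower. Of the 22 pan-endothelial members, 12 were lower and 1 higher with TMM scaling. Their median was −0.015 on the new scale, against −0.53 with TMM scaling. Of the 33 genes, 6 (18.2%) were higher and 1 (3.03%) lower, a smaller share higher than among all genes. Of the 14 genes lower with TMM scaling, 13 were not called here and Rasgrp3 was (−0.95 ± 0.22, adjusted p = 0.00219). Erg (−0.089 ± 0.18), Fli1 (−0.013 ± 0.20), Egfl7 (−0.017 ± 0.19) and Mmrn2 (0.007 ± 0.18) were close to 0. Others stayed further below 0 without a call, such as Prox1 (−0.631 ± 0.326, adjusted p = 0.13), Myct1 (−0.513 ± 0.215, 0.056) and Sox7 (−0.485 ± 0.235, 0.0939). Dll4 (−0.363 ± 0.187), Robo4 (−0.278 ± 0.186) and Ushbp1 (−0.263 ± 0.191) also lay below 0.

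The 6 genes higher relative to other endothelial genes were Plvap (1.53 ± 0.21, adjusted p = 1.61e-05), Vwf (1.44 ± 0.31, 0.0021), Sox17 (0.83 ± 0.19, 0.00182), Rgcc (0.69 ± 0.23, 0.0164), Clec14a (0.68 ± 0.23, 0.019) and Gpihbp1 (0.67 ± 0.23, 0.0215). They included 3 of the 5 capillary genes, on a scale where 42.3% of all genes were higher. One of the 3 is Plvap, which is typically low in continuous heart capillaries. The other capillary genes, Aqp1 (0.19 ± 0.24) and Car4 (−0.025 ± 0.37), were not called, and the median of the 5 was 0.67. Scaled this way, Plvap had 26.2, 23.8, 24.7 and 16.9 in YY1 KO hearts, against 7.39, 8.55, 8.06 and 7.67 in control hearts, where the 4 controls nearly coincided. Sox17 had 29.0, 26.8, 24.3 and 31.0 in YY1 KO hearts and 17.4, 16.8, 13.6 and 14.5 in control hearts, also apart. The count of lower genes was 3 without YY1 KO 4 or control 4, 2 without control 1 and 3 with the replicate number as a block, and the count of higher genes was between 4 and 6 when 1 library was left out.

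**Figure D4:**
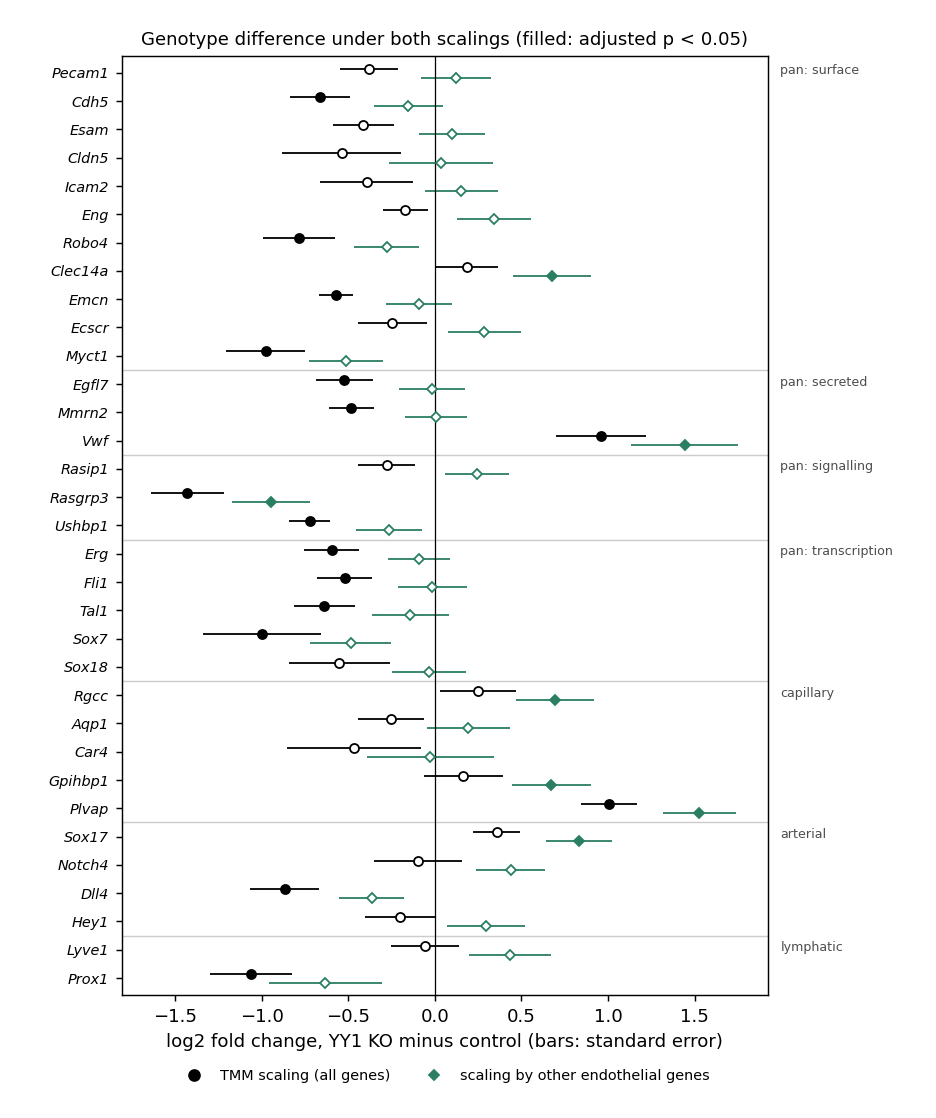
Log2 fold change of each of the 33 genes (YY1 KO minus control, bars show the standard error), with TMM scaling over all genes (circles) and with scaling by 21 other endothelial genes (diamonds); filled symbols have an adjusted p under 0.05. With the second scaling most pan-endothelial genes lie near 0, and Rasgrp3 is the only gene called below it. Prox1, Myct1 and Sox7 also lie below 0, with open symbols. Plvap, Vwf, Sox17, Rgcc, Clec14a and Gpihbp1 lie above 0.

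Endothelial genes outside the 33 gave a like count. Of 66 listed, 63 were tested, and 21 (33.3%) were lower and 3 (4.76%) higher, against 17.3% and 21.6% of all tested genes. Their median log2 fold change was −0.39, and without YY1 KO 3 the count of lower genes was 11. In the pan-endothelial list 9 of 21 fell, among them the transcriptional repressor gene Bcl6b (22.9 ± 2.40 CPM in YY1 KO hearts, 67.9 ± 27.5 CPM in control hearts, −1.57 ± 0.26), Arhgef15 (−0.89 ± 0.15) and Cyyr1 (−0.60 ± 0.12). In the capillary list 6 of 9 (66.7%) fell, with the VEGF receptor gene Kdr at −1.21 ± 0.18 and the homeobox gene Meox2 at −0.88 ± 0.19. The fatty-acid binding protein gene Fabp5 stood at −1.005 ± 0.26 (adjusted p = 0.0512 in the Y-positive hearts). The part of cardiomyocytes and other heart cells in these values was not tested. The activation list had 2 of 8 (25%) lower, not far above the 17.3% of all tested genes. These were the peptide ligand Apln (8.75 ± 4.16 CPM in YY1 KO hearts, 53.8 ± 22.0 CPM in control hearts, −2.62 ± 0.39) and Angpt2 (−0.86 ± 0.25). The Angpt2 call was lost without YY1 KO 3 or 4 or control 1 or 2 (adjusted p of at most 0.0639) and in the Y-positive hearts (0.066).

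The arterial list split. Of 12 genes, 3 (25%) fell, not far above the 17.3% of all tested genes. Among them were the receptor gene Notch1 (−0.75 ± 0.16) and the ephrin gene Efnb2 (−0.40 ± 0.12). The Efnb2 call was lost without YY1 KO 1 (adjusted p = 0.0619) or YY1 KO 3 (0.0611), in the Y-positive hearts (0.078) and with the replicate block (0.0522). Of the 12, 2 (16.7%) rose, against 21.6% of all tested genes. The elastic-fibre gene Fbln5 was among them (85.1 ± 32.7 CPM in YY1 KO hearts, 38.7 ± 6.38 CPM in control hearts, 1.14 ± 0.25). The connexin gene Gja4, named after its value was seen, also rose (0.40 ± 0.12, adjusted p = 0.0293), a call lost without YY1 KO 1, 2 or 4 or control 1 or 2 (at most 0.0883), in the Y-positive hearts (0.323) and with the replicate block (0.0776). Among 4 tested venous genes 1 (25%) fell, against 17.3% of all tested genes. It was Nrp2 (−1.21 ± 0.38, adjusted p = 0.0321), a call lost in 6 of 8 fits without 1 library. It was also lost with library size as the only scaling (0.0503) and without a filter (0.0555). Of 4 endocardial genes 1 (25%) rose, against 21.6% of all tested genes. This was the natriuretic peptide clearance receptor gene Npr3, with 54.5, 49.3, 72.2 and 38.5 CPM in YY1 KO hearts, against 16.8, 26.7, 23.0 and 16.1 CPM in control hearts (1.38 ± 0.22, adjusted p = 0.00179). Every YY1 KO heart was above every control heart for Npr3.

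Markers of other cells were read in the same libraries. Mural cells are the pericytes and smooth muscle around vessels. Their 8 markers summed to 782 to 985 CPM in YY1 KO hearts and 1136 to 1414 CPM in control hearts. Of the 8, 4 (50%) fell, against 17.3% of all tested genes, including the pericyte genes Rgs5 (−0.85 ± 0.14) and Kcnj8 (−0.72 ± 0.14). Abcc9, named after its value was seen, gave much of the gap in the sums (190 ± 56.7 CPM in YY1 KO hearts, 480 ± 126 CPM in control hearts). Acta2, also named afterwards, went the other way without a call (0.60 ± 0.31, adjusted p = 0.151). The Kcnj8 call was lost in the Y-positive hearts (−0.68, adjusted p = 0.0851). The 7 fibroblast markers summed to 1326 to 2863 CPM in YY1 KO hearts and 983 to 2374.5 CPM in control hearts. Of the 7, 1 (14.3%) was higher, against 21.6% of all tested genes. This was Pdgfra (0.39 ± 0.11, adjusted p = 0.0231). The Pdgfra call was lost without YY1 KO 3 or 4 or control 1 or 2 (at most 0.0638) and in the Y-positive hearts (0.159). The 7 macrophage markers summed to 159.9 to 265 CPM in YY1 KO hearts and 158 to 294 CPM in control hearts, with no call in edgeR and none at an unadjusted p under 0.05. The 5 erythroid markers summed to 15.96 to 90.5 CPM in YY1 KO hearts and 15.8 to 33.2 CPM in control hearts, almost all from Alas2. Hbb-bs and Hba-a1 were listed at 0 in all libraries, and whether this reflects absent RNA or the counting was not tested. Mesothelial and lymphocyte markers summed to at most 18.2 and 3.28 CPM in any heart. The part of these cells in the endothelial values was not tested.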

How the data were processed

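RNA-seq libraries from 8 mouse hearts (4 YY1 KO, 4 MerCreMer control) were analysed. The authors trimmed reads and counted them per gene with Trimmomatic and STAR, per the submitters' processing notes. Their deposited tables hold raw counts per gene, unstranded and for each strand, and 33.0 to 38.9% of reads fell in rows that name no gene and were left out. The labels do not say whether replicates were prepared in separate batches, so p-values measure the spread between these samples.

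Unstranded counts were used, with the annotated strand as an alternative. Genes with at least 10 counts in a library of median size (0.648 CPM) in 4 libraries were kept, which left 13506 of 24411. They were fitted with edgeR 4.0.16 (TMM, robust quasi-likelihood F test, R 4.3.3), and p-values were adjusted by Benjamini-Hochberg over all tested genes with a threshold of 0.05. DESeq2 1.42.0 and limma 3.58.1 (voom) were alternatives. In simulated counts with a small set of changed genes, the test recovered 57.6% of genes changed 2-fold and 23% of those changed 1.5-fold. Of its 86 calls, 6.98% were false. Far fewer genes were changed there than the 38.9% called in these hearts, so these rates do not measure the power of this comparison. Depth limits low genes most, since counting error is larger there. In a further fit the libraries were scaled to 21 endothelial genes outside the list. A fold change is YY1 KO over control, and an SE is that of the log2 value.

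Members and gene lists were chosen with earlier results of these data known. All 33 members are named, as are up to 3 genes with the smallest p in each other endothelial list and up to 2 in each list of other cells, and exceptions are stated. Gene positions are from GENCODE M21 (GRCm38, also called mm10). Replicate numbers are from the labels.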

Additional observations from a re-analysis of the deposited data

Results flagged for a closer look

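Of 68 groups of 4 hearts examined over the endothelial genes and marker sums, 2 held a heart far from the other 3 by Dixon's ratio. Chance alone gives about 1 in 20, so this count is not above chance. Robo4 stood at 66.9 CPM in YY1 KO 4, the highest of its group, while the other 3 YY1 KO hearts had 43.9 to 46.2 CPM. Sox17 stood at 30.0 CPM in YY1 KO 4, also the highest of its group, while the other 3 had 20.9 to 22.0 CPM.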

How the results depend on the processing

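The 33 genes kept their calls and directions with RLE and upper-quartile scaling and with a mean CPM filter of at least 1. Leaving out 1 library at a time gave 10 to 20 lower and 1 to 2 higher members, 11 to 29 lower and 2 to 5 higher other endothelial genes, 1 to 3 lower and 4 to 6 higher members relative to other endothelial genes, and −0.84 to −0.71 for Yy1. In the Xist-positive hearts alone edgeR called 0 genes of any list (5 members lower and 1 higher at an unadjusted p under 0.05), and Yy1 stood at −0.76 (adjusted p = 0.116). Among other endothelial genes, 5 were higher with library size as the only scaling and 5 with annotated-strand counts, instead of 3.

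Correlations of same-numbered deviations ran from −0.53 to 0.29, which does not settle whether replicate numbers pair the samples. Same-numbered YY1 KO and control hearts were of the same sex-chromosome kind, so the replicate block also carries that kind. With the replicate block 1 member was higher, 14 were lower, and 3 were lower relative to other endothelial genes, while calls over all genes numbered 4026 instead of 5248. The members that changed sign were not called in either fit, which holds for Clec14a in the Xist-positive hearts (−0.066), Car4 in the Y-positive hearts (0.007), Gpihbp1 in the Xist-positive hearts (−0.24) and without YY1 KO 2 (range over 8 such fits −0.097 to 0.30), and Notch4 without control 3 (0.015) or control 4 (0.081; range −0.30 to 0.081). It also holds for Lyve1 with library size alone (0.001), in the Y-positive hearts (0.23), and without YY1 KO 4 (0.076), control 2 (0.012) or control 4 (0.035; range −0.18 to 0.076). The causes were not tested. Fewer hearts in the Y-positive and Xist-positive fits mean less power.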
